A study of Mus musculus with 30 samples.

Results

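RNA from myotubes grown out of mouse primary myoblasts was compared with RNA from myotubes of the C2C12 line, both after 7 days of differentiation on micropatterned gelatin. These are 6 of the 30 libraries analysed in the series, 3 for each cell type, chosen from the labels for cell type, differentiation day and substrate and not from any measured value. The study used the primary cells as the standard against which cultured C2C12 myotubes could be judged, so the comparison asks how far the line differs from primary muscle cells on the same surface. The remaining libraries hold C2C12 cells on plastic or unpatterned gelatin, earlier days, and undifferentiated cells of both kinds.

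By the paper's methods the primary myotubes came from hindlimb muscle of 3 C57/Bl6J mice of 8 weeks, while its results name the gastrocnemius. The muscle was digested with collagenase, and the cells were pre-plated on an uncoated dish and expanded in Ham's F-10 with serum and basic FGF. The C2C12 myotubes came from an immortal mouse myoblast line kept in DMEM with fetal bovine serum. Both were then plated on gelatin hydrogels moulded with lanes 10 µm wide, switched to DMEM with horse serum, and treated briefly with trypsin just before RNA extraction to enrich for myotubes. The labels name no transgene or drug for either group. Donor strain, passage history and growth medium all differed together with cell type, and their parts cannot be told apart. The 3 libraries of a group are described as separate cultures. The paper profiled separate batches of C2C12 cells and reports that the individual genes regulated often differed between them. Only a single set of C2C12 day 7 patterned libraries was analysed here, and its titles name no batch. Whether each primary library is a separate mouse is not stated in the sources used here, so p-values measure the spread between these cultures.

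Myoblasts leave the cell cycle, fuse into multinucleated myotubes, and assemble sarcomeres from myosin, actin, titin and nebulin while a triad of membranes couples the surface action potential to calcium release. The myogenic factors MyoD and myogenin start that programme, and MRF4, encoded by Myf6, is the member that dominates in adult fibres. Developing fibres first use embryonic (Myh3) and perinatal (Myh8) myosin and later adult forms, and maturing fibres take up more glucose through Glut4 and burn more fatty acid.

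Values are estimated read counts summed to genes. They are given as CPM, counts relative to the library's total after scaling by the trimmed mean of M values, and only TPM, which also divides by transcript length, is used to set one gene beside another. Fold changes are primary over C2C12 on the log2 scale with their standard error, so a positive value means higher in primary myotubes. A gene is called where the Benjamini-Hochberg adjusted p of edgeR's quasi-likelihood test is under 0.05. The libraries held 29.9, 20.5 and 26.7 M counts for primary myotubes, against 30.03, 16.8 and 13.1 M for C2C12 myotubes. The labels give no sequencing batch. Primary replicate 3 stood farthest from its group, with a median deviation of 0.189 log2 units per gene, against 0.124 and 0.113 for the other primary libraries. It was low for many sarcomere genes: 84 sarcomere genes took 9.10%, 8.27% and 5.05% of TPM in primary myotubes, against 8.20%, 8.44% and 9.09% in C2C12 myotubes. By counts, which weight long transcripts more, they took 11.5%, 12.4% and 8.08% in primary myotubes, against 7.56%, 6.8% and 8.25% in C2C12 myotubes. C2C12 replicate 2 was lowest for several very long transcripts. Where leaving out a library moved a call or a count, this is given for many of the genes and lists but not for all.

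The cell type labels were checked against markers. Over all genes tested, 15.2% were called higher and 18.2% lower in primary myotubes, the shares to set beside the called counts here. All 10 skeletal muscle markers were tested, and their summed level ran from 9372 to 19603 TPM in primary myotubes, against 14264 to 16019 TPM in C2C12 myotubes. Of 19 fibroblast and fibro-adipogenic markers, 15 passed the filter on low counts and 11 were lower in primary myotubes and 0 higher (1 higher without primary replicate 3). Their summed level was 116 to 301 TPM in primary myotubes, against 1230 to 1630 TPM in C2C12 myotubes. Of 14 smooth muscle and pericyte markers 11 were tested, with 2 higher (1 without C2C12 replicate 1) and 5 lower (8 without primary replicate 3), and 687 to 1470 TPM in primary myotubes against 2278 to 2636 TPM in C2C12 myotubes. The macrophage markers Adgre1, C1qa and Tyrobp, the endothelial marker Emcn and the adipocyte markers Cfd and Plin1 had no count in any of the 6 libraries. Of 16 macrophage and leukocyte markers 7 were tested, with 3 higher and 1 lower, a median of 1.57, and summed levels of 7.17 to 8.19 TPM in primary myotubes against 6.56 to 7.95 TPM in C2C12 myotubes. Among them Mrc1 had 3.02, 2.51 and 2.11 CPM in primary myotubes, against 0.318, 0.464 and 0.718 CPM in C2C12 myotubes (log2 fold change 2.40 ± 0.39, edgeR adjusted p = 0.00339), and Lyz2 had 1.04, 0.837 and 0.822 CPM in primary myotubes, against 0.0637, 0.116 and 0 CPM in C2C12 myotubes (edgeR adjusted p = 0.00307). Of 13 endothelial markers 7 were tested, with 1 higher (0 without primary replicate 2, C2C12 replicate 1 or C2C12 replicate 2) and 0 lower, and 19.9 to 25.1 TPM in primary myotubes against 10.5 to 28.0 TPM in C2C12 myotubes. Of 10 adipocyte markers 4 were tested, with 0 higher and 2 lower (1 lower without primary replicate 2), and 10.6 to 12.7 TPM in primary myotubes against 22.6 to 27.6 TPM in C2C12 myotubes. The part of these differences in the results was not tested, and in bulk RNA fewer cells of a type and less RNA per cell cannot be told apart.

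Of 13959 genes tested, 4672 (33.5%) were called, with 2125 (15.2%) higher and 2547 (18.2%) lower in primary myotubes. These shares are the ones to set beside the called counts of each list. The 2 groups of libraries did not overlap for 7241 genes (51.9%), which include 4649 of the called genes. The difference was at least 2-fold for 1316 higher and 1611 lower genes, and 158 higher and 167 lower genes differed by at least 5 log2 units. Without primary replicate 2 the lower calls fell to 1645. The median over all genes was -0.01. On TPM values tested with limma (log2 of TPM + 1), the median was -0.14 and the split moved to 1405 higher and 3037 lower genes, 31.6% higher calls against 45.5% in the edgeR fit. The plot of 19 genes by library shows the range covered.

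**Figure D1:**
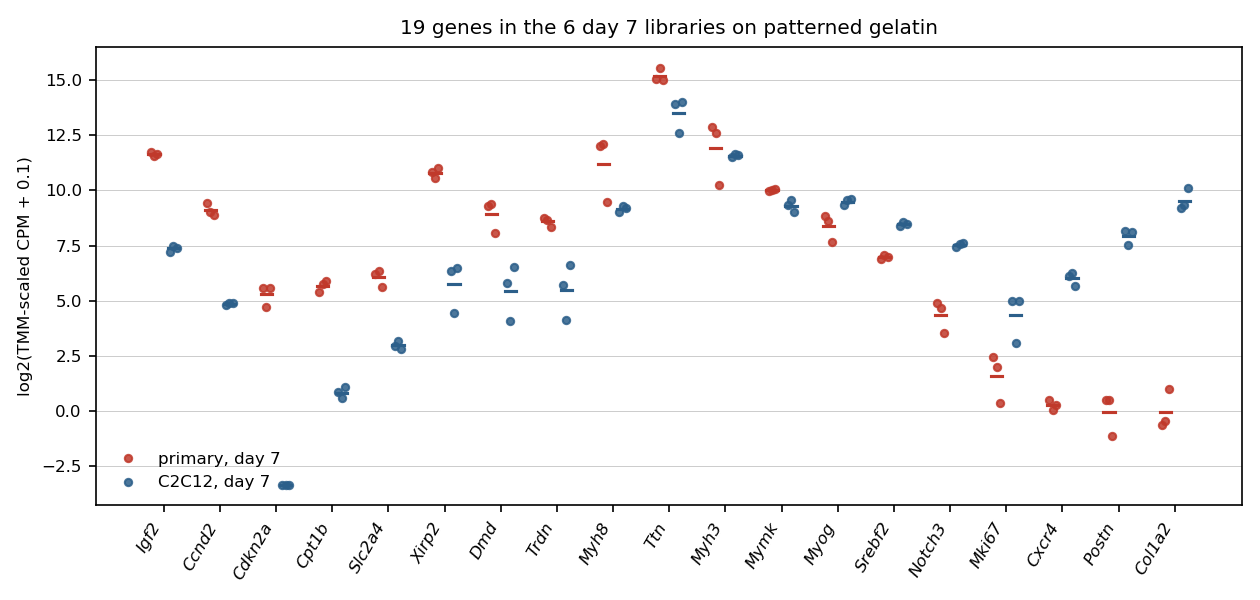
Log2 of TMM-scaled CPM + 0.1 (vertical axis) of 19 genes in the 3 primary (red) and 3 C2C12 (blue) day 7 libraries, each point a library and each bar the group's mean. Igf2 to Trdn sit higher in all 3 primary libraries, Srebf2 to Col1a2 sit lower in all 3, and Myh3 overlaps; Cdkn2a is at 0 CPM in every C2C12 library.

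A set of the largest differences belonged to reads that fell on a gene in one cell type and on a near-identical copy of it in the other. All but 1 of the 12 largest decreases named by rule belong to families of genes that share at least 50% of their 31-base words, and 9 of these 12 lost their call or changed direction once the counts of each family were summed, an alternative chosen after seeing the data. Gapdh, the glycolytic enzyme often used to normalise expression, had 3457, 3724 and 3839.6 CPM in primary myotubes, against 1042, 1239.7 and 789 CPM in C2C12 myotubes (log2 fold change 1.84 ± 0.22, edgeR adjusted p = 0.00089). Its processed pseudogene Gm13394 had 2.38, 1.78 and 0.509 CPM in primary myotubes, against 1588, 1760.0 and 2351 CPM in C2C12 myotubes. Summed over the 50 members of the family the values were 4592, 4589 and 4695 CPM in primary myotubes, against 2673, 3049 and 3179.8 CPM in C2C12 myotubes, and the log2 fold change shrank to 0.64 (edgeR adjusted p = 0.0277). The mirror image appears at Gm7336, Gm10359 and Gm12671, 3 further Gapdh pseudogenes with identical counts: each had 363, 272 and 273 CPM in primary myotubes, against 0, 0 and 0 CPM in C2C12 myotubes.

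Hspa8, a constitutive chaperone, had 2369, 2521 and 3138 CPM in primary myotubes, against 982, 1159.6 and 813 CPM in C2C12 myotubes (log2 fold change 1.44 ± 0.21, edgeR adjusted p = 0.00215). Its pseudogene Gm15459 had 2.05, 4.39 and 3.09 CPM in primary myotubes, against 1511, 1653 and 1573 CPM in C2C12 myotubes. The sum over the family, 2372, 2525 and 3142 CPM in primary myotubes, against 2494, 2812 and 2386 CPM in C2C12 myotubes, left no call (log2 fold change 0.06, edgeR adjusted p = 0.829). Rps2, a protein of the small ribosomal subunit, had 944, 929 and 1039 CPM in primary myotubes, against 5.38, 6.61 and 8.19 CPM in C2C12 myotubes, while Rps2-ps10 had 1.84, 2.88 and 2.58 CPM in primary myotubes, against 1189.7, 1354 and 2293 CPM in C2C12 myotubes. The sum for Rps2 was 949, 935 and 1044 CPM in primary myotubes, against 1199, 1365 and 2309 CPM in C2C12 myotubes, with a log2 fold change of -0.74 in place of 7.18. Rps3a1, Rps18 and Rpl26 had the same arrangement. For the glycolytic gene Eno1 it was partial, and Eno1 was not called (edgeR adjusted p = 0.194). In C2C12 myotubes Eno1 had 534, 618 and 649 CPM, beside 325, 359 and 557 CPM on its protein-coding copy Eno1b. No direction is drawn here for any of these genes alone.

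The 2 members of such a pair can differ by very few bases, as the stretches of mouse reference sequence below show (GENCODE M21 transcripts, GRCm38, the base that differs in capitals). Gapdh and Gm13394 differ at 1 of 1000 aligned bases, in coding exon 4 of Gapdh. Hspa8 and Gm15459 differ at 5 of 1941, and the site shown lies in exon 2 of Hspa8. The Gapdh stretch lies at chr6:125162992-125163040 on the minus strand and that of Gm13394 at chr2:28934240-28934288, also minus. The Hspa8 stretch lies at chr9:40802006-40802066 on the plus strand and that of Gm15459 at chr5:5783412-5783472 on the minus strand.
Gapdh: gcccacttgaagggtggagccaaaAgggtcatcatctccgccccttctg
Gm13394: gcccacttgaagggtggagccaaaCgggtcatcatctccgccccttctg
Hspa8: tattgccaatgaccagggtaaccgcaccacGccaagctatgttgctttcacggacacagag
Gm15459: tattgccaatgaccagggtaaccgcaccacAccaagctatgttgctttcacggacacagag
Which base the RNA of each cell type carries was not read, since only estimated counts were analysed, and the cause of the exchange was not tested. Of the 4672 called genes, 468 belonged to a family of copies, and of these 324 kept their direction and call when summed, 78 lost the call and 66 reversed. The genes of muscle structure and metabolism described from here on have no copy that takes up their reads unless one is named.

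**Figure D2:**
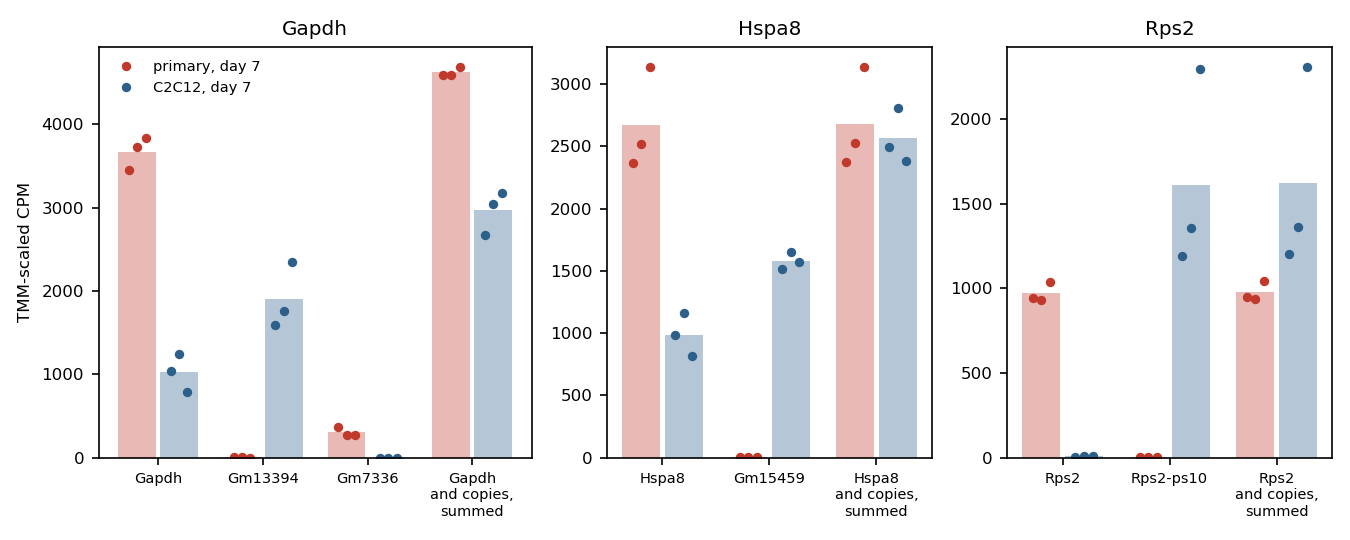
TMM-scaled CPM (vertical axis) of Gapdh, Hspa8 and Rps2, of near-identical copies, and of each family summed, in the 3 primary (red) and 3 C2C12 (blue) day 7 libraries; bars are means and points are libraries. For Hspa8 and Rps2, primary counts lie on the gene and C2C12 counts largely on the copy, and the summed Hspa8 values of the groups overlap. Gapdh counts lie mostly on the gene in primary libraries and on Gm13394 in C2C12 libraries, while Gm7336 has counts only in primary libraries.

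Sarcomere genes were mixed, with some structural genes higher in primary myotubes and most contractile subunits not called. Titin, the spring that spans the sarcomere, had 33583, 47887 and 32405 CPM in primary myotubes, against 15487, 6261 and 16244 CPM in C2C12 myotubes for Ttn (log2 fold change 1.58 ± 0.41, edgeR adjusted p = 0.0214). Nebulin, the ruler of the thin filament, had 11623, 15069.7 and 10508 CPM in primary myotubes, against 3972, 1153 and 2955 CPM in C2C12 myotubes for Neb (log2 fold change 2.20 ± 0.45, edgeR adjusted p = 0.00829). All 3 primary values exceeded all C2C12 values for both. Ttn lost its call without C2C12 replicate 1 (edgeR adjusted p = 0.0506), without primary replicate 2 (0.0685) and with a replicate block (0.0645), whereas Neb kept its call in all 16 alternatives. Genes with transcripts over 8 kb had a median log2 fold change of 0.16 (272 genes), against -0.01 for all genes.

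At the Z disc, Actn2, the α-actinin that anchors thin filaments, had 2737, 2376 and 1188 CPM in primary myotubes, against 317, 373 and 279 CPM in C2C12 myotubes (log2 fold change 2.70 ± 0.33, edgeR adjusted p = 0.00103). Xirp2, an actin-binding protein of the Z disc and intercalated regions, had 1840.2, 1506 and 2065 CPM in primary myotubes, against 80.3, 22 and 90.5 CPM in C2C12 myotubes (log2 fold change 4.81 ± 0.54, edgeR adjusted p = 0.000726), the most marked increase among the Z-disc members called. Cmya5, which binds α-actinin and desmin, had 606, 637 and 81.8 CPM in primary myotubes, against 28.5, 19 and 18.8 CPM in C2C12 myotubes (log2 fold change 4.32 ± 0.74, edgeR adjusted p = 0.00401), with primary replicate 3 far below its group and still above every C2C12 library. Igfn1 and Ankrd2, both Z-disc or I-band proteins linked to stretch, went the other way. Igfn1 had 19, 22 and 34.1 CPM in primary myotubes, against 255.02, 238 and 263 CPM in C2C12 myotubes, a log2 fold change of -3.33, and Ankrd2 had 6.41, 3.03 and 6.58 CPM in primary myotubes, against 57.7, 57.8 and 85.5 CPM in C2C12 myotubes, a log2 fold change of -3.64. Of the 29 Z-disc genes, all tested, 5 were higher and 3 lower (8 higher without primary replicate 3), so the higher share was near the 15.2% of all genes and the lower share below the 18.2%. Their median was -0.12.

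Among 16 thick filament and M-band genes tested of 17, 5 were higher and 2 lower. No thick filament gene stayed lower with a replicate block, or without C2C12 replicate 1, C2C12 replicate 3 or primary replicate 2, and 1 did without C2C12 replicate 2. Mybpc1, slow myosin-binding protein C, had 999, 777 and 368 CPM in primary myotubes, against 195, 213 and 146 CPM in C2C12 myotubes (log2 fold change 1.95 ± 0.36, edgeR adjusted p = 0.00566). Within its family it made up 92.2% of TPM in primary myotubes, against 60.1% in C2C12 myotubes (means of 3). Smyd1, a methyltransferase needed for myosin assembly, had 417, 502 and 326 CPM in primary myotubes, against 134, 159.8 and 114 CPM in C2C12 myotubes (log2 fold change 1.61 ± 0.21, edgeR adjusted p = 0.00138).

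Myosin heavy chains differed by isoform. Perinatal Myh8 had 4084, 4361 and 718 CPM in primary myotubes, against 525, 619 and 583 CPM in C2C12 myotubes (log2 fold change 2.41 ± 0.60, edgeR adjusted p = 0.0189). Primary replicate 3 was the lowest of its group and only slightly above the C2C12 range, and the call was lost on TPM (limma adjusted p = 0.0647), with the replicate block (edgeR 0.0638), and without any one of the C2C12 libraries or primary replicate 2 (0.0537 to 0.0742). Fast IIa myosin Myh2 had 26.4, 21.6 and 3.17 CPM in primary myotubes, against 128, 138 and 135 CPM in C2C12 myotubes (log2 fold change -2.97 ± 0.65, edgeR adjusted p = 0.0113), with every C2C12 library above every primary one. Embryonic Myh3, with 7579, 6107 and 1226 CPM in primary against 2878, 3164 and 3089.6 CPM in C2C12 myotubes, and the IIx isoform Myh1, with 4997, 5257 and 3637 CPM in primary against 3765, 4162 and 4149.6 CPM in C2C12 myotubes, did not pass (adjusted p = 0.371 and 0.493, edgeR). Without primary replicate 3, Myh3 was called higher (log2 fold change 1.21, edgeR adjusted p = 0.00154). Of 9 myosin heavy chains tested, 2 were higher and 2 lower, but 5 were higher without primary replicate 3 and 1 without any one of the other libraries apart from primary replicate 1. As a share of the TPM of 6 myosins, Myh8 took 12% to 25.9% in primary myotubes, against 5.75% to 7.02% in C2C12 myotubes, and Myh2 took 0.0681% to 0.143% against 1.32% to 1.5%. Paralogous myosins share long stretches of sequence, so estimated counts of low isoforms such as Myh2 and Myh6 beside abundant relatives are less certain than those of Myh1 or Myh3.

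**Figure D3:**
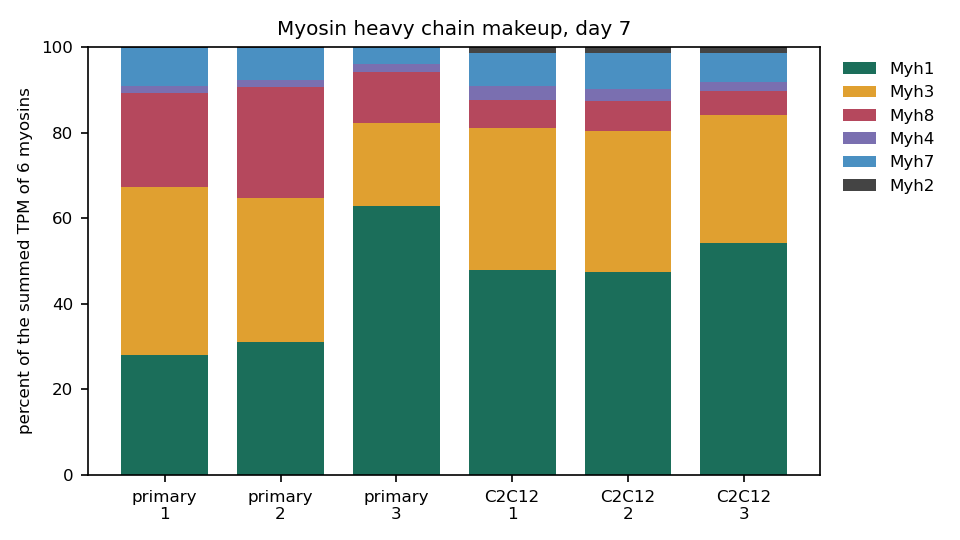
Share of the summed TPM of 6 myosin heavy chains (vertical axis, percent) in each primary and C2C12 day 7 library. Myh8 takes 12% to 25.9% in primary libraries against 5.75% to 7.02% in C2C12 libraries, and primary replicate 3 has the highest share of Myh1 (62.8%).

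In the thin filament, 1 of 20 genes was higher and 3 lower, and without primary replicate 3 there were 5 higher. The slow troponin T gene Tnnt1 had 172, 211 and 301 CPM in primary myotubes, against 589, 638 and 753 CPM in C2C12 myotubes (log2 fold change -1.53 ± 0.23, edgeR adjusted p = 0.00259). The fast troponin I gene Tnni2 had 227, 159.7 and 79.9 CPM in primary myotubes, against 527, 527 and 733 CPM in C2C12 myotubes (log2 fold change -1.94 ± 0.37, edgeR adjusted p = 0.00642). Both were lower in every primary library, and Tnni2 took 14.5% to 16.5% of troponin I TPM in primary myotubes, against 29.0% to 31.2% in C2C12 myotubes. Skeletal α-actin, encoded by Acta1, did not separate the groups (6748, 4782 and 2251 CPM in primary against 4745, 5741 and 4546 CPM in C2C12 myotubes).

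Genes of the triad and of calcium handling included some of the larger increases. Trdn encodes triadin, which holds calsequestrin at the release channel, and had 435, 406 and 328 CPM in primary myotubes, against 52, 17.3 and 98.3 CPM in C2C12 myotubes (log2 fold change 2.80 ± 0.56, edgeR adjusted p = 0.00755). Ryr1, the release channel itself, had 3042, 3808 and 2462 CPM in primary myotubes, against 1307, 1521 and 1085 CPM in C2C12 myotubes (log2 fold change 1.25 ± 0.23, edgeR adjusted p = 0.00574). Of 24 triad genes 6 were higher and 1 lower, against 15.2% higher and 18.2% lower of all genes. Without primary replicate 3, 13 triad genes were higher. The lower one, Casq1, which encodes the calcium buffer of fast fibres, had 165, 196 and 83.2 CPM in primary myotubes, against 276, 290.1 and 290.4 CPM in C2C12 myotubes (log2 fold change -0.95 ± 0.29, edgeR adjusted p = 0.0417), and it lost the call without primary replicate 1 or any one C2C12 library (edgeR adjusted p = 0.0797 to 0.102). Among 9 calcium pump and regulator genes tested of 11 matched, 5 were higher and 2 lower, or 3 and 1 without primary replicate 2. Phospholamban, the pump inhibitor of slow muscle and heart, had 22.2, 30.4 and 35.6 CPM in primary myotubes, against 0.859, 0.695 and 1.44 CPM in C2C12 myotubes for Pln (log2 fold change 4.91 ± 0.33, edgeR adjusted p = 8.38e-05), and Atp2a3, a pump more typical of non-muscle cells, had 16.7, 20.2 and 43 CPM in primary myotubes, against 2.32, 2.32 and 1.94 CPM in C2C12 myotubes (log2 fold change 3.59 ± 0.40, edgeR adjusted p = 0.000682). The fast-fibre pump Atp2a1 and the slow-fibre pump Atp2a2 were not called (Atp2a1 log2 fold change -0.01, or 0.50 without primary replicate 3). Pvalb, the calcium buffer parvalbumin of fast fibres, had 0.576, 0.732 and 0.157 CPM in primary myotubes, against 13.6, 19.1 and 17.8 CPM in C2C12 myotubes (log2 fold change -5.12 ± 0.46, edgeR adjusted p = 0.000305).

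At the surface membrane, Dmd, which encodes dystrophin, had 624, 675 and 265 CPM in primary myotubes, against 55.6, 16.7 and 91 CPM in C2C12 myotubes (log2 fold change 3.26 ± 0.63, edgeR adjusted p = 0.00701). The groups did not overlap, and the call held in all 16 alternatives. Nos1, the neuronal nitric oxide synthase that dystrophin anchors, had 1.84, 0.941 and 0.0783 CPM in primary myotubes, against 38.4, 43.9 and 29.7 CPM in C2C12 myotubes (log2 fold change -5.27 ± 0.71, edgeR adjusted p = 0.0015). Of 19 genes of the dystrophin glycoprotein complex, 4 were higher and 1 lower (2 lower without primary replicate 3 or C2C12 replicate 2), and their median was 0.09. Neuromuscular junction genes numbered 20, with 3 higher and 2 lower. Those counts ranged from 1 to 6 higher and 0 to 2 lower as single libraries were left out.

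**Figure D4:**
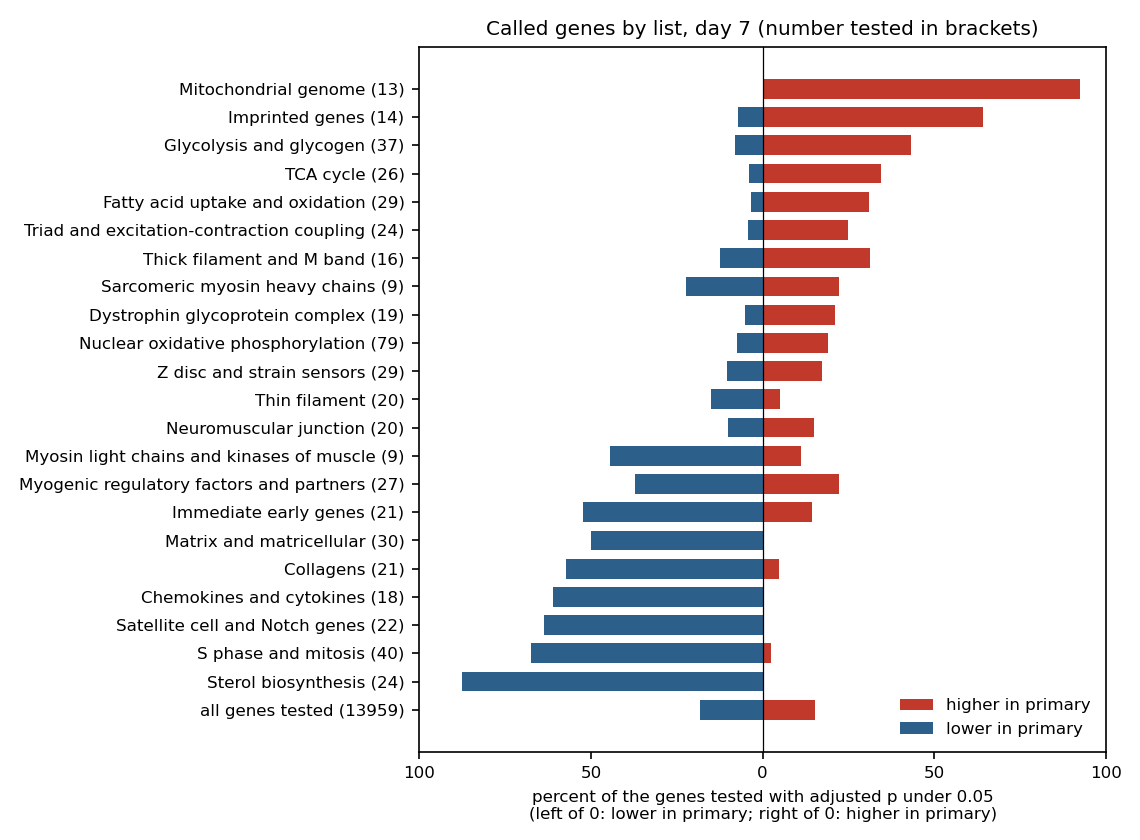
Percent of the tested genes of each list (horizontal axis) called higher (red, right) or lower (blue, left) in primary myotubes at day 7, with the number tested in brackets and all genes at the bottom. Mitochondrial transcripts were called higher in 12 of 13 and sterol genes lower in 21 of 24, against 15.2% higher and 18.2% lower of all genes.

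Transcripts of the mitochondrial genome were higher with few exceptions. Of 13 mitochondrial mRNAs, 12 were called higher and 0 lower, against 15.2% of all genes called higher, with a median log2 fold change of 1.99. The mitochondrial share of all counts was 4.67%, 4.66% and 6.95% in primary myotubes, against 1.91%, 1.77% and 0.894% in C2C12 myotubes. These C2C12 shares were the lowest of the 30 libraries, and C2C12 myotubes on patterned gelatin at day 4 had 4.21%, 2.70% and 4.00%. With a replicate block mt-Atp6 and mt-Nd3 lost their calls (edgeR adjusted p = 0.0710 and 0.0718). The call of mt-Atp6 was also lost without C2C12 replicate 2 (0.0709), and that of mt-Nd3 without C2C12 replicate 1 (0.0754). mt-Atp6, mt-Nd3, mt-Co2 and mt-Nd4 have near-identical copies, Gm10925, Gm28438, Gm28661 and Gm28439. Gm10925 carried 0.72, 0 and 399 CPM in primary myotubes, against 187, 225 and 189 CPM in C2C12 myotubes. Summed with their copies, the 4 genes had log2 fold changes of 1.77, 2.06, 1.955 and 2.29 (edgeR adjusted p = 0.0235, 0.0212, 0.00202 and 0.00196). mt-Co3, a subunit of cytochrome oxidase, had 7784, 8550.3 and 15674 CPM in primary myotubes, against 1994, 2045 and 841 CPM in C2C12 myotubes (log2 fold change 2.71 ± 0.44, edgeR adjusted p = 0.00334). Its near-identical copy Gm28437, an unprocessed pseudogene, carried 880.2, 477 and 2370.2 CPM in primary myotubes, against 760.0, 1264 and 279 CPM in C2C12 myotubes, and the sum kept the direction (log2 fold change 2.31, edgeR adjusted p = 0.00887). mt-Cytb, the cytochrome b of complex III with no such copy, had 4110.1, 3709 and 4995 CPM in primary myotubes, against 1487, 921 and 658 CPM in C2C12 myotubes (log2 fold change 2.06 ± 0.32, edgeR adjusted p = 0.00284). mt-Nd6, the only mRNA on the light strand, had 518, 279 and 274 CPM in primary against 185, 186 and 312 CPM in C2C12 myotubes and was not called (adjusted p = 0.159, edgeR). Nuclear genes for oxidative phosphorylation had 15 of 79 higher and 6 lower, with a median of 0.04 (9 higher without C2C12 replicate 1, and 1 lower without primary replicate 2 or 3 lower without C2C12 replicate 3), and Cox4i1 had 320.2, 289 and 283 CPM in primary against 238, 265 and 355 CPM in C2C12 myotubes.

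Several genes for glucose and fatty acid use were higher in primary myotubes. Slc2a4, which encodes the insulin-responsive transporter Glut4, had 74.3, 81.8 and 49.9 CPM in primary myotubes, against 7.64, 8.93 and 6.97 CPM in C2C12 myotubes (log2 fold change 3.13 ± 0.23, edgeR adjusted p = 0.000124). Ppp1r3c, a scaffold that steers phosphatase to glycogen, had 65.2, 46.4 and 57.1 CPM in primary myotubes, against 2.61, 3.48 and 2.37 CPM in C2C12 myotubes (log2 fold change 4.32 ± 0.23, edgeR adjusted p = 2.77e-05). Aldoa, the muscle aldolase, had 4039.6, 3705 and 2905 CPM in primary myotubes, against 1848, 2115 and 2111 CPM in C2C12 myotubes (log2 fold change 0.81 ± 0.20, edgeR adjusted p = 0.0172), and of 37 glycolysis and glycogen genes tested of 38, 16 were higher and 3 lower, with a median of 0.49. Over all genes, 15.2% were called higher and 18.2% lower. Leaving out C2C12 replicate 1 left 9 glycolysis and glycogen genes higher, and leaving out primary replicate 2 or C2C12 replicate 3 left 1 lower. Pfkm, muscle phosphofructokinase, was among the lower ones (665, 648 and 466 CPM in primary against 887, 1004 and 1204 CPM in C2C12 myotubes, log2 fold change -0.80).

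Cpt1b, the muscle form of the enzyme that admits long-chain fatty acids to mitochondria, had 42.3, 53.7 and 58.7 CPM in primary myotubes, against 1.72, 1.39 and 2.01 CPM in C2C12 myotubes (log2 fold change 4.92 ± 0.22, edgeR adjusted p = 1.81e-05). Cpt1b overlaps the gene model Gm44502 on the same strand, and the fit with their counts summed kept its call. Pdk4, the kinase that closes pyruvate dehydrogenase when fat is burned, had 171, 226 and 293 CPM in primary myotubes, against 41.7, 51 and 34.3 CPM in C2C12 myotubes (log2 fold change 2.44 ± 0.25, edgeR adjusted p = 0.000487). Of 29 genes for fatty acid uptake and oxidation tested of 30, 9 were higher and 1 lower, against 15.2% and 18.2% of all genes. The lower one, Ucp2, an uncoupling protein homologue, had 18.5, 19.7 and 6.42 CPM in primary myotubes, against 83.3, 105 and 59.7 CPM in C2C12 myotubes (log2 fold change -2.48 ± 0.43, edgeR adjusted p = 0.00424). Among 26 tricarboxylic acid cycle genes, 9 were higher and 1 lower, with a median of 0.35 (0 lower without any one primary library).

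Myogenic factors differed in a gene-specific way. Myog, encoding myogenin, had 453, 396 and 202 CPM in primary myotubes, against 640.3, 755 and 770.1 CPM in C2C12 myotubes (log2 fold change -1.04 ± 0.29, edgeR adjusted p = 0.0303). The groups did not overlap, and the call was lost under a replicate block (edgeR adjusted p = 0.0529), and without any one of the C2C12 libraries or primary replicate 2 (0.0605 to 0.0853). Myf6, encoding MRF4, had 15.8, 19 and 10.9 CPM in primary myotubes, against 4.36, 5.74 and 4.17 CPM in C2C12 myotubes (log2 fold change 1.68 ± 0.26, edgeR adjusted p = 0.0029) and kept its call in all 16 alternatives. Myod1 had 139, 158 and 121 CPM in primary against 169, 197 and 223 CPM in C2C12 myotubes and just missed the threshold (adjusted p = 0.0556, edgeR). It was called lower in 5 of the 16 alternatives, with DESeq2 (0.0461), limma on TPM (0.0224 and 0.0237), and 18 or 30 libraries in the edgeR fit (0.0185 and 0.00202). Mef2c, a cofactor of these proteins, had 2469, 2239 and 1068 CPM in primary myotubes, against 908, 676 and 622 CPM in C2C12 myotubes (log2 fold change 1.39 ± 0.33, edgeR adjusted p = 0.0165). Id1 and Id3 encode inhibitors that bind the partners of MyoD, and Id1 had 5.44, 4.13 and 5.95 CPM in primary myotubes, against 18, 18.5 and 26.1 CPM in C2C12 myotubes (log2 fold change -2.00 ± 0.23, edgeR adjusted p = 0.000842). Of 27 factors and partners tested of 31, 6 were higher and 10 lower, and the lower count fell to 4 without primary replicate 2, 6 without C2C12 replicate 1 and 5 without C2C12 replicate 2. Mymk, which encodes the fusion protein myomaker, had 1008, 1051 and 1074 CPM in primary myotubes, against 636, 756 and 517 CPM in C2C12 myotubes (log2 fold change 0.71 ± 0.18, edgeR adjusted p = 0.0207). The call of Mymk was lost without C2C12 replicate 1, C2C12 replicate 3 or primary replicate 2 (edgeR adjusted p = 0.0508 to 0.0726). Of 15 fusion genes tested of 18, 3 were higher and 5 lower, falling to 0 higher and 3 lower without C2C12 replicate 1, 1 and 3 without C2C12 replicate 3, 1 and 2 without primary replicate 2, and 2 and 3 without C2C12 replicate 2.

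Many satellite cell and Notch genes were lower. Satellite cells are the stem cells of muscle, and Notch signalling keeps them from differentiating. Of 22 such genes tested of 26, 14 were lower and 0 higher, against 18.2% of all genes called lower, with a median of -1.38 (2 were higher without primary replicate 3). Cxcr4, a chemokine receptor of migrating myoblasts, had 1.33, 0.941 and 1.1 CPM in primary myotubes, against 70.2, 75.8 and 50.1 CPM in C2C12 myotubes (log2 fold change -5.84 ± 0.25, edgeR adjusted p = 1.54e-05). Fgfr4, a growth factor receptor of embryonic and regenerating muscle, had 1.04, 1.36 and 0.509 CPM in primary myotubes, against 30.2, 31.2 and 36.5 CPM in C2C12 myotubes (log2 fold change -5.08 ± 0.33, edgeR adjusted p = 8e-05). Notch3 had 30.1, 25.1 and 11.6 CPM in primary myotubes, against 173, 188 and 196 CPM in C2C12 myotubes (log2 fold change -3.06 ± 0.34, edgeR adjusted p = 0.000668), and its target Heyl had 4.61, 3.5 and 0.117 CPM in primary myotubes, against 32.4, 41.4 and 28.7 CPM in C2C12 myotubes (log2 fold change -3.64 ± 0.83, edgeR adjusted p = 0.0137). The ligand gene Dll1 had 16.8, 16.7 and 20.2 CPM in primary myotubes, against 63.1, 69.8 and 85.4 CPM in C2C12 myotubes (log2 fold change -2.02 ± 0.17, edgeR adjusted p = 0.000225). Not all members followed: the ligand gene Jag2 had 51.6, 55.8 and 35.6 CPM in primary against 30.6, 32.5 and 38.6 CPM in C2C12 myotubes and the receptor gene Notch1 had 91.3, 107 and 77.5 CPM in primary against 106, 133 and 95.2 CPM in C2C12 myotubes, and neither was called (adjusted p = 0.0974 and 0.283, edgeR). Pax7, the defining factor of satellite cells, had 21.5, 16.1 and 5.71 CPM in primary against 37.5, 39.8 and 27.1 CPM in C2C12 myotubes and missed the threshold (adjusted p = 0.058, edgeR). The adjusted p was 0.0167 with DESeq2 and 0.0179 in edgeR without primary replicate 3.

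Cell cycle genes were lower, and 2 neighbouring inhibitor genes were seen only in primary libraries. Of 40 S phase and mitosis genes, all tested, 27 were lower and 1 higher, against 18.2% lower and 15.2% higher of all genes, with a median of -1.5. Rrm2, the ribonucleotide reductase subunit made in S phase, had 23.7, 20.3 and 19.7 CPM in primary myotubes, against 102, 117 and 83.8 CPM in C2C12 myotubes (log2 fold change -2.25 ± 0.17, edgeR adjusted p = 0.000148). Ccna2, encoding cyclin A2, had 1.8, 1.78 and 0.822 CPM in primary myotubes, against 13.3, 13.6 and 10.4 CPM in C2C12 myotubes (log2 fold change -3.09 ± 0.34, edgeR adjusted p = 0.00066). Mki67, the proliferation marker, had 5.36, 3.92 and 1.17 CPM in primary myotubes, against 31.5, 8.35 and 31.7 CPM in C2C12 myotubes (log2 fold change -2.77 ± 0.66, edgeR adjusted p = 0.0159), with C2C12 replicate 2 nearest to the primary range, and it lost the call without C2C12 replicate 1, C2C12 replicate 3 or primary replicate 2 (edgeR adjusted p = 0.0513 to 0.0588). The 1 gene higher was Ccne1, which encodes cyclin E1 (13.5, 10.9 and 6.97 CPM in primary against 2.86, 3.65 and 2.8 CPM in C2C12 myotubes). Ccnd2 encodes a D cyclin, a class that drives entry into the cycle and stands outside that list, and it had 696, 523 and 474 CPM in primary myotubes, against 27.5, 29.3 and 29.7 CPM in C2C12 myotubes (log2 fold change 4.29 ± 0.20, edgeR adjusted p = 2.06e-05), a difference much larger than the spread within either group.

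Cdkn2a encodes the inhibitors p16 and p19ARF, and Cdkn2b the related p15. Cdkn2a had 47.2, 26.1 and 47.5 CPM in primary myotubes, against 0, 0 and 0 CPM in C2C12 myotubes, and Cdkn2b had 24.9, 23.4 and 22.9 CPM in primary myotubes, against 0, 0 and 0 CPM in C2C12 myotubes. Both lie on mouse chromosome 4, Cdkn2a at chr4:89274471-89294653 and Cdkn2b at chr4:89306299-89311039 (GRCm38). With C2C12 at 0, only a lower bound of the difference can be given: 3 counts over the 3 C2C12 libraries together, the limit that 0 counts allow for counting error, put Cdkn2a at least 784-fold and Cdkn2b at least 447-fold higher in primary myotubes. Cdkn1a, which encodes p21, had 1245, 1350.3 and 1435 CPM in primary against 1603, 1876 and 1737 CPM in C2C12 myotubes and was not called (adjusted p = 0.118, edgeR). Of 18 inhibitor, Rb family and p53 genes, 4 were higher and 4 lower (2 lower without primary replicate 2), against 15.2% higher and 18.2% lower of all genes.

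Extracellular matrix genes were lower in primary myotubes. Of 21 collagen genes tested of 22, 12 were lower and 1 higher, against 18.2% and 15.2% of all genes, with a median of -2.48. Col1a2, a chain of type I collagen, had 0.54, 0.627 and 1.88 CPM in primary myotubes, against 587, 641 and 1094 CPM in C2C12 myotubes (log2 fold change -9.55 ± 0.60, edgeR adjusted p = 6.46e-05), and Col1a1 had 6.66, 1.88 and 2 CPM in primary myotubes, against 175, 230.0 and 336 CPM in C2C12 myotubes (log2 fold change -6.11 ± 0.59, edgeR adjusted p = 0.000389). Col3a1 had 163, 58.8 and 10.3 CPM in primary myotubes, against 1459, 1435 and 2364 CPM in C2C12 myotubes (log2 fold change -4.50 ± 0.91, edgeR adjusted p = 0.00821), so primary libraries ran over a more than 10-fold range and still fell below every C2C12 library. The 1 higher, Col25a1, a transmembrane collagen of muscle needed for innervation, had 177, 572 and 418 CPM in primary myotubes, against 46.7, 53.7 and 57.8 CPM in C2C12 myotubes (log2 fold change 2.89 ± 0.40, edgeR adjusted p = 0.00179).

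Postn, encoding periostin, had 1.33, 1.31 and 0.352 CPM in primary myotubes, against 287, 183 and 277 CPM in C2C12 myotubes (log2 fold change -7.97 ± 0.49, edgeR adjusted p = 5.94e-05), and Dcn, encoding decorin, had 0.792, 0.732 and 1.84 CPM in primary myotubes, against 95.2, 86.6 and 48.9 CPM in C2C12 myotubes (log2 fold change -6.08 ± 0.45, edgeR adjusted p = 0.000125). Of 30 other matrix genes tested of 35, 15 were lower and 0 higher, or 9 lower without C2C12 replicate 3, with 2 higher without primary replicate 3 and 1 without C2C12 replicate 2. Of 14 matrix proteases and inhibitors tested of 19, 8 were lower and 0 higher, with 1 higher without primary replicate 3. The fibroblast marker genes Pdgfra (1.33, 1.15 and 1.37 CPM in primary against 11.6, 10.8 and 10.8 CPM in C2C12 myotubes) and Pdgfrb (3.85, 1.73 and 0.117 CPM in primary against 126, 151 and 105 CPM in C2C12 myotubes) were also lower, with log2 fold changes of -3.10 and -6.05. These fibroblast markers moved with the matrix genes, and their part was not tested. Of 18 chemokine and cytokine genes tested of 20, 11 were lower and 0 higher, with 1 higher without primary replicate 3. Over all genes, 18.2% were called lower and 15.2% higher. Ccl7, an attractant of monocytes, had 0.18, 0.0523 and 0.117 CPM in primary myotubes, against 8.78, 8.17 and 13 CPM in C2C12 myotubes (log2 fold change -6.29 ± 0.43, edgeR adjusted p = 9.47e-05).

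Igf2, the fetal insulin-like growth factor that myotubes secrete, was among the most abundant genes with a large increase. It had 3361, 3046 and 3154 CPM in primary myotubes, against 149.9, 179 and 168 CPM in C2C12 myotubes (log2 fold change 4.27 ± 0.19, edgeR adjusted p = 1.54e-05), and averaged 1565 TPM in primary myotubes and 94 TPM in C2C12 myotubes. Igfbp3, a binding protein, had 77.1, 75.9 and 74.1 CPM in primary myotubes, against 5.67, 4.75 and 5.89 CPM in C2C12 myotubes (log2 fold change 3.80 ± 0.15, edgeR adjusted p = 1.51e-05), and Igf2r, which clears the factor, had 750.5, 625 and 578 CPM in primary myotubes, against 221, 244 and 189 CPM in C2C12 myotubes (log2 fold change 1.58 ± 0.18, edgeR adjusted p = 0.000678). The groups were tight and far apart for all 3. Igfbp4 went down (4.57, 9.57 and 4.31 CPM in primary against 60.6, 66.2 and 88.7 CPM in C2C12 myotubes, log2 fold change -3.56). In the insulin-like growth factor axis 4 of 15 tested genes of 17 were higher and 4 lower, against 15.2% and 18.2% of all genes.

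Igf2 and Igf2r are imprinted genes, expressed from 1 parental copy. Of 14 imprinted genes tested of 28 listed, 9 were higher and 1 lower, against 15.2% and 18.2% of all genes, with a median of 1.71. H19, Meg3, Rian, Mirg, Kcnq1ot1 and Peg13 were not analysed here. Peg3, a zinc finger protein, had 1846, 1891 and 1937 CPM in primary myotubes, against 625, 393 and 562 CPM in C2C12 myotubes (log2 fold change 1.84 ± 0.21, edgeR adjusted p = 0.000778). Peg10, a retrotransposon-derived gene, had 308, 220.5 and 146 CPM in primary myotubes, against 24.7, 26.8 and 12 CPM in C2C12 myotubes (log2 fold change 3.40 ± 0.39, edgeR adjusted p = 0.000788). Grb10, an adaptor that damps insulin signalling, had 544, 519 and 30.6 CPM in primary myotubes, against 1.31, 1.28 and 0.862 CPM in C2C12 myotubes (log2 fold change 8.27 ± 1.17, edgeR adjusted p = 0.00183), with primary replicate 3 far below its group. Mest was the 1 lower gene (23.1, 12.6 and 7.2 CPM in primary against 98.6, 94.2 and 52.9 CPM in C2C12 myotubes, log2 fold change -2.51). In the TGF-β family 6 of 26 genes were higher and 7 lower, against the same 15.2% and 18.2% of all genes. Mstn, which encodes myostatin, the brake on muscle growth, had 13.2, 8.73 and 1.72 CPM in primary myotubes, against 0.0637, 0 and 0 CPM in C2C12 myotubes (edgeR adjusted p = 0.00203), and Bmp2 had 3.6, 5.49 and 4.7 CPM in primary myotubes, against 0.127, 0 and 0.0718 CPM in C2C12 myotubes (log2 fold change 5.81 ± 0.59, edgeR adjusted p = 0.00051). C2C12 counts of both genes were near 0, and no fold is given for Mstn.

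Sterol synthesis genes were lower as a block. These genes are switched on together by SREBP2, the product of Srebf2, when cells lack cholesterol. Of 24 such genes, all tested, 21 were lower and 0 higher, against 18.2% of all genes called lower, with a median of -1.16. Srebf2 had 119, 134 and 125 CPM in primary myotubes, against 337, 380.3 and 356 CPM in C2C12 myotubes (log2 fold change -1.51 ± 0.13, edgeR adjusted p = 0.00028). Fdps, which makes farnesyl pyrophosphate, had 91, 90.9 and 77.1 CPM in primary myotubes, against 224, 265 and 313 CPM in C2C12 myotubes (log2 fold change -1.63 ± 0.17, edgeR adjusted p = 0.000543). The groups did not overlap for either gene. The lower count was 17 to 20 over the 6 fits that left out a library.

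Immediate early genes, which answer growth signals within minutes, were mixed: of 21 tested, 11 were lower and 3 higher (7 lower without primary replicate 2). Over all genes, 18.2% were called lower and 15.2% higher. Junb, an AP-1 subunit that sustains muscle mass, had 24.8, 17.3 and 12.1 CPM in primary myotubes, against 139, 162 and 181 CPM in C2C12 myotubes (log2 fold change -3.15 ± 0.28, edgeR adjusted p = 0.000266). Atf3, a stress-induced factor, had 44.5, 34.6 and 52.8 CPM in primary myotubes, against 4.77, 4.4 and 4.45 CPM in C2C12 myotubes (log2 fold change 3.27 ± 0.20, edgeR adjusted p = 6.01e-05). Interferon response and MHC class I genes gave 3 higher and 2 lower of 25 tested, but 12 higher without primary replicate 3. Of 29 Hox and limb position genes tested of 46, 5 were higher and 3 lower (8 higher without primary replicate 3, and 2 without C2C12 replicate 1, and 1 lower without C2C12 replicate 1 or primary replicate 2). With all 6 libraries the higher share was near that of all genes and the lower share below it. Hoxd8 had 23.5, 44.5 and 2.74 CPM in primary myotubes, against 0, 0 and 0 CPM in C2C12 myotubes, with every C2C12 library at 0 and a wide spread among primary libraries. By the same 3-count floor it was at least 408-fold higher with the 3 primary libraries pooled. Primary replicate 3 held only 70 of the 1574 pooled counts, so that bound does not hold for it alone.

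A few transcripts marked the cell types almost completely. Gpc4, a heparan sulphate proteoglycan of the cell surface, had 399.9, 353 and 249 CPM in primary myotubes, against 0.159, 0.29 and 0 CPM in C2C12 myotubes (log2 fold change 10.99 ± 0.49, edgeR adjusted p = 1.7e-05). The Y-linked translation factor gene Eif2s3y had 117, 111 and 113 CPM in primary myotubes, against 0.0955, 0.058 and 0.0718 CPM in C2C12 myotubes (log2 fold change 10.39 ± 0.22, edgeR adjusted p = 1.05e-06), and the Y-linked helicase gene Ddx3y had 202, 180.4 and 177 CPM in primary myotubes, against 0.0637, 0.058 and 0 CPM in C2C12 myotubes. The Y-linked genes Uty and Kdm5d were also higher but differed by less, at 18.8-fold and 4.46-fold. Kdm5d had 1442, 1148 and 1227 counts in primary libraries, against 388, 124 and 228 counts in C2C12 libraries. Zcchc3 and Fndc3c1 had 14.8 to 24.5 CPM in primary myotubes and 0 CPM in C2C12 myotubes. Nnt, a mitochondrial transhydrogenase that carries a deletion in some C57BL/6J colonies, was not called (128, 131 and 96.4 CPM in primary against 104, 121 and 96.4 CPM in C2C12 myotubes, adjusted p = 0.551, edgeR). At day 0 Nnt was lower in primary cells (log2 fold change -1.29 ± 0.10, edgeR adjusted p = 5.72e-05), and the change between days was called (log2 fold change 1.46 ± 0.20, edgeR adjusted p = 0.000132). Abcc9, a regulatory subunit of ATP-sensitive potassium channels, had 180.3, 214 and 148 CPM in primary myotubes, against 9.17, 9.45 and 8.84 CPM in C2C12 myotubes (log2 fold change 4.30 ± 0.19, edgeR adjusted p = 1.54e-05).

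For Igf2, Cpt1b and Col1a2, C2C12 myotubes at day 7 on the other surfaces lay on the C2C12 side of the difference. Scaled over all 30 libraries, Igf2 had 174 to 192 CPM on unpatterned gelatin and 109.8 to 239.5 CPM on plastic, against 3284 to 3611 CPM in primary myotubes. Cpt1b had 1.08 to 1.97 CPM on unpatterned gelatin and 1.04 to 1.86 CPM on plastic, where primary myotubes had 45.4 to 62.6 CPM. Col1a2 had 496 to 661 and 406 to 602 CPM on those surfaces, where primary myotubes had 0.58 to 2 CPM. Not every difference was so uniform. The mitochondrial share of counts in C2C12 myotubes was 4.11%, 2.14% and 2.68% on unpatterned gelatin and 3.99%, 2.70% and 2.88% on plastic. These values lay above those of the patterned C2C12 libraries and below those of the primary libraries. Primary myotubes on those surfaces were not analysed here, so whether a surface changes the difference was not tested.

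Undifferentiated cells were compared to see which differences were already there. At day 0, primary myoblasts against C2C12 myoblasts (3 libraries each, labelled plastic, though the methods describe coated dishes for the primary cells, in different growth media) gave 7691 called of 14234 genes tested (54.0%), 3896 higher (27.4%) and 3795 lower (26.7%). The day 0 and day 7 comparisons share no library. Of the 1984 genes higher at day 7 and tested on both days, 1460 (73.6%) were also higher at day 0, which is 39.0% of the day 0 increases, and 79 (3.98%) were lower. Of 2432 genes lower at day 7, 1604 (66.0%) were also lower at day 0, which is 44.7% of the day 0 decreases, and 139 (5.72%) were higher. Sterol genes were lower in 22 of 24 and S phase and mitosis genes in 32 of 40 at day 0, and the Cdkn2a, Ccnd2, Col1a2 and Gpc4 differences were all called at day 0 with the same sign.

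The change in the difference between days was tested as an interaction (day 7 minus day 0, 18 libraries). It called 3568 of 15270 genes (23.4%), 1594 upward (10.4%) and 1974 downward (12.9%). A fit with the replicate number as a block within each cell type called 5397 genes. The numbers may pair the primary cultures, a pairing that the main fit did not use. Deviations of same-numbered primary libraries at days 7 and 4 correlated at 0.680, 0.680 and 0.840, against 0.472 and 0.305 for replicates 1 and 2 crossed. At days 7 and 0 they correlated at 0.236, 0.343 and 0.489, but replicates 1 and 2 crossed gave 0.332 and 0.394, and replicate 3 alone stood apart. Same-numbered C2C12 libraries at days 7 and 4 gave -0.123, 0.165 and 0.0269. Hypoxia response genes had 11 of 16 downward and 0 upward, with a median of -0.85, and satellite cell and Notch genes had 15 of 22 downward and 0 upward. The mitochondrial genome had 8 of 13 upward.

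Several muscle regulators changed sides between days. Myog was higher in primary cells at day 0 (log2 fold change 1.83) and lower at day 7 (-1.04), an interaction of -2.86 (edgeR adjusted p = 0.000831). Myod1 had a log2 fold change of 2.43 at day 0 and -0.49 at day 7, where it was not called. Myf6 moved in the opposite direction, with -1.47 at day 0 and 1.68 at day 7. Id1 had 2.18 at day 0 and -2.00 at day 7. Mest, 4.14 at day 0 and -2.51 at day 7, had an interaction of -6.63 (edgeR adjusted p = 1.82e-05). Igf2 stayed higher on both days but by less at day 7, 7.63 at day 0 and 4.27 at day 7. Xirp2 and Cpt1b had their difference mainly at day 7, with interactions of 5.33 and 4.09 (edgeR adjusted p = 0.00105 and 3.16e-06).

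**Figure D5:**
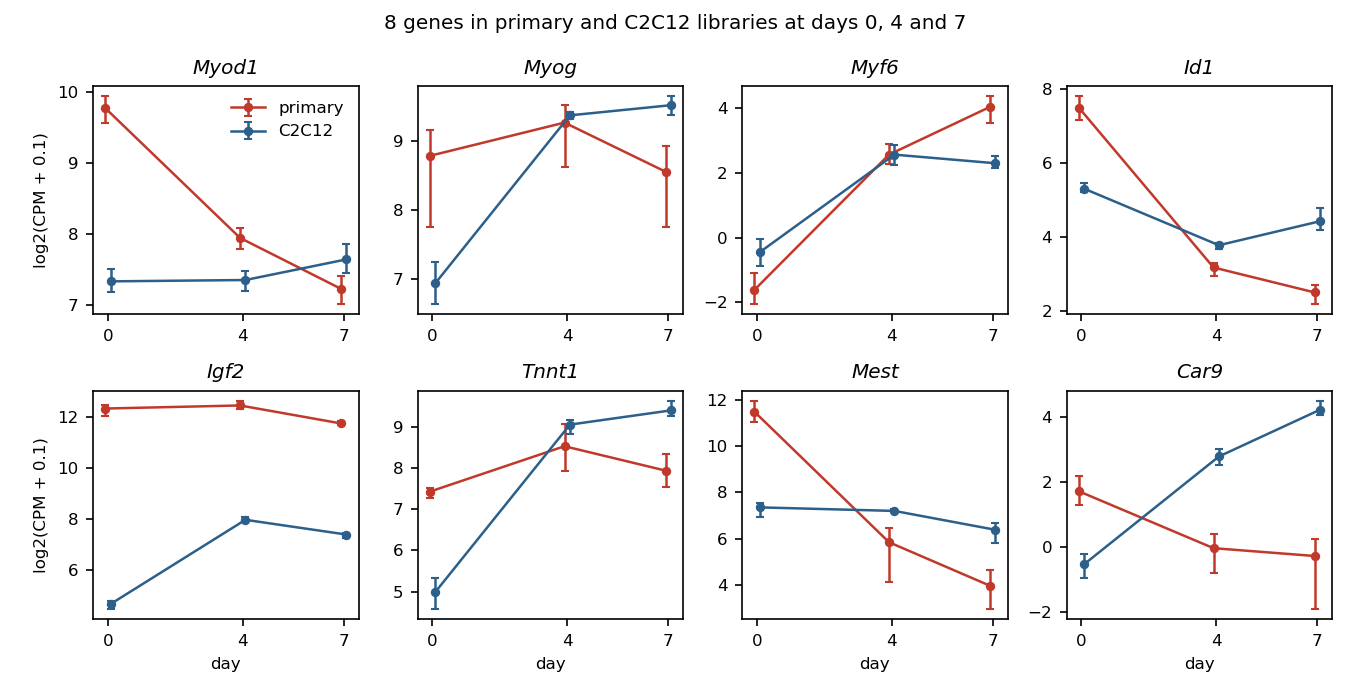
Log2 of CPM + 0.1 (vertical axis, scaled over 30 libraries) by differentiation day (horizontal axis) of 8 genes in primary (red) and C2C12 (blue) cells, as means of 3 libraries with the range as bars. The lines of Myog, Myf6, Id1, Tnnt1, Mest and Car9 cross between day 0 and day 7, and Igf2 stays higher in primary cells throughout.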

How the data were processed

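Per the labels and the study's methods, the authors dissolved the cell pellets in Trizol and isolated RNA with a Zymo kit. They sequenced it in pairs on a NextSeq 500 and quantified transcripts with kallisto (build mm10). The version of kallisto was not given in the sources used here, nor was its transcript set. The deposited estimated counts and TPM (transcript abundance corrected for length), one value per transcript, were made by the authors with kallisto. Of 88198 transcripts, 86119 matched GENCODE M21, and 0.732% to 0.86% of the counts of these 6 libraries were on unmatched ones, which were left out. Values were summed to 30284 genes and estimated counts rounded.

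Counts were tested in R 4.3.3 with edgeR 4.0.16 (filterByExpr, TMM, glmQLFit and glmQLFTest), on 6 libraries for each day and 18 for the interaction, without a replicate block. The study's own test (sleuth) was not used. limma 3.58.1 and DESeq2 1.42.0 served as alternatives. Near-identical genes were grouped where at least 50% of the shorter gene's 31-base words were shared. That alternative was added after seeing the data. Scripts were tested on simulated data.

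Genes were named by rule: the 12 largest changes each way without overlap and with at least 10 CPM in the higher group, the 10 largest TPM differences each way, up to 4 per list by adjusted p, a panel, and 6 interaction genes each way. The libraries compared and the gene lists were chosen with earlier results of these data known, and list members outside the rule were named after their values were seen. Of 945 list symbols 9 were not matched and were not analysed here. Same-numbered primary and C2C12 day 7 libraries did not deviate together (correlations of 0.00288, -0.0377 and 0.0226), so they were not treated as pairs. Intervals and floors cover counting error only.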

Additional observations from a re-analysis of the deposited data

Results flagged for a closer look

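The 11 genes flagged here had a primary against C2C12 difference called on both days with opposite signs. For each, the change between days was itself called by the interaction test (edgeR, adjusted p under 0.05). More genes than these had opposite signs. Of genes tested on both days, 79 called higher at day 7 were called lower at day 0, and 139 called lower at day 7 were called higher. The change, as the day 7 log2 fold change less that at day 0, was 3.16 for Myf6, -2.86 for Myog and -4.17 for Id1 among the myogenic regulators. It was -2.95 for the Notch ligand gene Dll1 and -3.95 for the slow troponin T gene Tnnt1. Car9, a carbonic anhydrase induced by low oxygen, had -7.06. Endod1 had 3.28, Myzap 4.48 and Sord, a sorbitol dehydrogenase, 3.42. Gatm, which makes the creatine precursor, had 2.14, and the creatine transporter gene Slc6a8 had -0.79. Growth medium and dish coating also differed between the cell types at day 0, and their part was not tested. Some of the day 7 calls are fragile. Slc6a8 lost its day 7 call in 12 of 16 alternatives, including all 6 fits without a library (adjusted p = 0.0525 to 0.189 over the 12, edgeR or limma), Endod1 in 7, Myog in 5 and Sord in 1, without C2C12 replicate 1.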

How the results depend on the processing

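The day 7 count of called genes was 4672 and stayed within 1.5 times of that in all alternatives but one: 7951 with all 30 libraries in the fit. With one library left out at a time it was 3245 to 5503, with a replicate block 3702, with DESeq2 5423, and with near-identical copies summed 4518, of which 4438 were among the 4672. At day 0 the count was 7691, and 6041 to 9640 with a library left out. The interaction count was 3568, 2660 to 3719 with a library left out, and 5397 with a replicate block. Of 244 named genes tested, 210 were called. Of these 210, 167 kept call and direction in all 16 alternatives. Over the 244, 35 lost the call somewhere and 16 gained it. Without primary replicate 3, Atp2a1 went to 0.50 (log2), and over the fits without one library it was -0.32 to 0.50, against -0.01 with all 6. With copies summed, an alternative chosen after seeing the data, the fold changes of 8 copies reversed: Gm10260 to 0.43, Gm13394 to 0.64, Gm15459 to 0.062, Gm15772 to 0.19, Gm28438 to 2.06, Gm8116 to 0.83, Rpl34-ps1 to 0.12 and Rps3a2 to 0.10. For the other changes the cause was not tested. Depth limits genes near 0 counts in C2C12 replicates 2 and 3, the shallowest of the 6 libraries at 16.8 and 13.1 M counts.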
